A study of Mus musculus with 12 samples.

Results

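The 7 genes described here serve cyclic AMP (cAMP) signalling in CD4 T cells: Ramp3, Rapgef3 (which encodes EPAC1), Crem, Pde4b, Pde3b, Ptger2 and Ptger4. They were chosen by symbol from a table of 52632 genes, and all 7 were among the 19288 genes with enough signal to be tested. Because they were chosen with earlier results of these data known, their levels and differences are given as a description, and no p-value is printed for any of them. Calls of the 7 past a threshold are counted below, and nothing is read from those counts. Expression was measured by total RNA sequencing of flow-sorted kidney CD4 T cells of the mouse, in 12 libraries that form 4 groups of 3.

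Both genotypes were on the C57BL6/J background. CD4 Keap1 KO mice (KO) were bred in house and WT C57BL6/J mice were bought, so an effect of genotype cannot be told apart from one of the mice's source. The name places the Keap1 deletion in CD4 T cells, but the labels do not say which driver was used or which part of the gene was removed. Keap1 keeps the transcription factor NRF2 low. In KO IRI and WT IRI, both kidneys were clamped for 30 min and harvested 24 h after ischemia-reperfusion injury (IRI), while KO control and WT control came from separate mice without a stated sham operation. The labels call the libraries replicates without tying each to an animal, so the p-values rest on variation among libraries, which may be technical.

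The cAMP pathway starts at receptors coupled to the stimulatory G protein, which switch on adenylyl cyclases. In T cells the prostaglandin E2 receptors EP2 and EP4 (Ptger2, Ptger4) and the adenosine receptor Adora2a are such receptors. RAMP proteins are accessory chains that set which peptide the receptor CALCRL binds: with RAMP1 it is a receptor for calcitonin gene-related peptide, and with RAMP2 or RAMP3 one for adrenomedullin. cAMP acts through protein kinase A and through EPAC1, an exchange factor that loads the small GTPase RAP1. The phosphodiesterases PDE4B and PDE3B break cAMP down, and CREM is a transcription factor that binds cAMP response elements and includes the repressor isoform ICER, itself induced by cAMP. In T cells the pathway is known for restraining activation through the antigen receptor.

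Promoter sequence is shown for the pair of genes with the widest differences after IRI (Ramp3 and Rapgef3), for Pde4b, and for Ptger4 as a gene with the opposite direction. Each line holds the 250 bases before a RefSeq start on GRCm38.p6, read 5′ to 3′ on the gene's strand, with capitals marking a half-site of the cAMP response element.
Ramp3 promoter, chr11:6658283-6658532, plus strand: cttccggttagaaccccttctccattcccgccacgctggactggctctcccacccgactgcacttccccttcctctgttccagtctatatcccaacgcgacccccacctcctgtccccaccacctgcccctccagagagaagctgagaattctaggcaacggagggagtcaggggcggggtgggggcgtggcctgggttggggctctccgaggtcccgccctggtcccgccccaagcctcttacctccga
Rapgef3 promoter, chr15:97767667-97767916, minus strand: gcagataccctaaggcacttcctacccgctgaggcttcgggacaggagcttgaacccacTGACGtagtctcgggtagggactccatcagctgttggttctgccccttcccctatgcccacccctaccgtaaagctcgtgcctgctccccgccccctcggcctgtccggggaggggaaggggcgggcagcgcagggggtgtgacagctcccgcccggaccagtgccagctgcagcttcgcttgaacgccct
Pde4b promoter, chr4:102421305-102421554, plus strand: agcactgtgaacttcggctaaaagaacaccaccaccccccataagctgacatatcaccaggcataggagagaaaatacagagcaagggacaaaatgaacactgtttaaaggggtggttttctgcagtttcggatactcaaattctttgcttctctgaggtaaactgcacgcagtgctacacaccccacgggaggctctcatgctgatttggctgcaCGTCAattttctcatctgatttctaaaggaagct
Ptger4 promoter, chr15:5244188-5244437, minus strand: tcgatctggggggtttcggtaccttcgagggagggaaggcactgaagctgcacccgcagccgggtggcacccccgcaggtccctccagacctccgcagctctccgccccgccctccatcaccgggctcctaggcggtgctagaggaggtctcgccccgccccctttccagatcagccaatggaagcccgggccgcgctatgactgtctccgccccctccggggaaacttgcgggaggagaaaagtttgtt
The full element TGACGTCA, its half-site TGACG or CGTCA, and the AP-1 motif TGACTCA or TGAGTCA were searched on both strands, and a half-site also lies inside each full element. RefSeq starts were matched for 5 of the 7 genes (8 windows, as Pde4b has 4 starts), and Crem and Pde3b were not matched. None of the 8 windows held the full element or the AP-1 motif, which occurred in 1.55% and 4.46% of 32851 windows of the same length. Half-sites occurred in the Rapgef3 window, 191 to 187 bases before the start, and in the first Pde4b window, 34 to 30 bases before it, against 17.8% of all windows. For Pde4b this first window is the one shown, and its other windows held no half-site. The Rapgef3 and Pde4b windows shown lie inside the annotated gene spans given below, whose starts differ from these RefSeq starts. A match describes these letters and no binding.

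Values are FPKM, fragments scaled to the transcript's length and to the fragments mapped in the library, so levels can be compared between genes but the depth of each library is unknown. FPKM summed to between 739969 and 2089551 per library, of which the 3 most abundant genes took 17.7% to 63.1%. Malat1 was listed at 0 in KO control 1. Nqo1, an NRF2 target, was 3.38 to 7.75 FPKM in the 6 KO libraries and at most 0.543 FPKM in the 6 WT libraries. Keap1 was 4.59 to 7.77 FPKM in KO and 6.03 to 9.87 FPKM in WT, and a whole-gene value does not check a deletion of unknown extent. Differences are on the log2(FPKM + 1) scale with a standard error (SE) from limma, and many are also given after a median-ratio rescaling of the libraries. The scaling bears on genotype: the median gene differed between KO and WT by 0.30 (log2) in controls and by 0.26 after IRI as deposited, and by 0.01 and 0.02 after rescaling. Comparisons that share a group are not independent of each other.

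**Figure D1:**
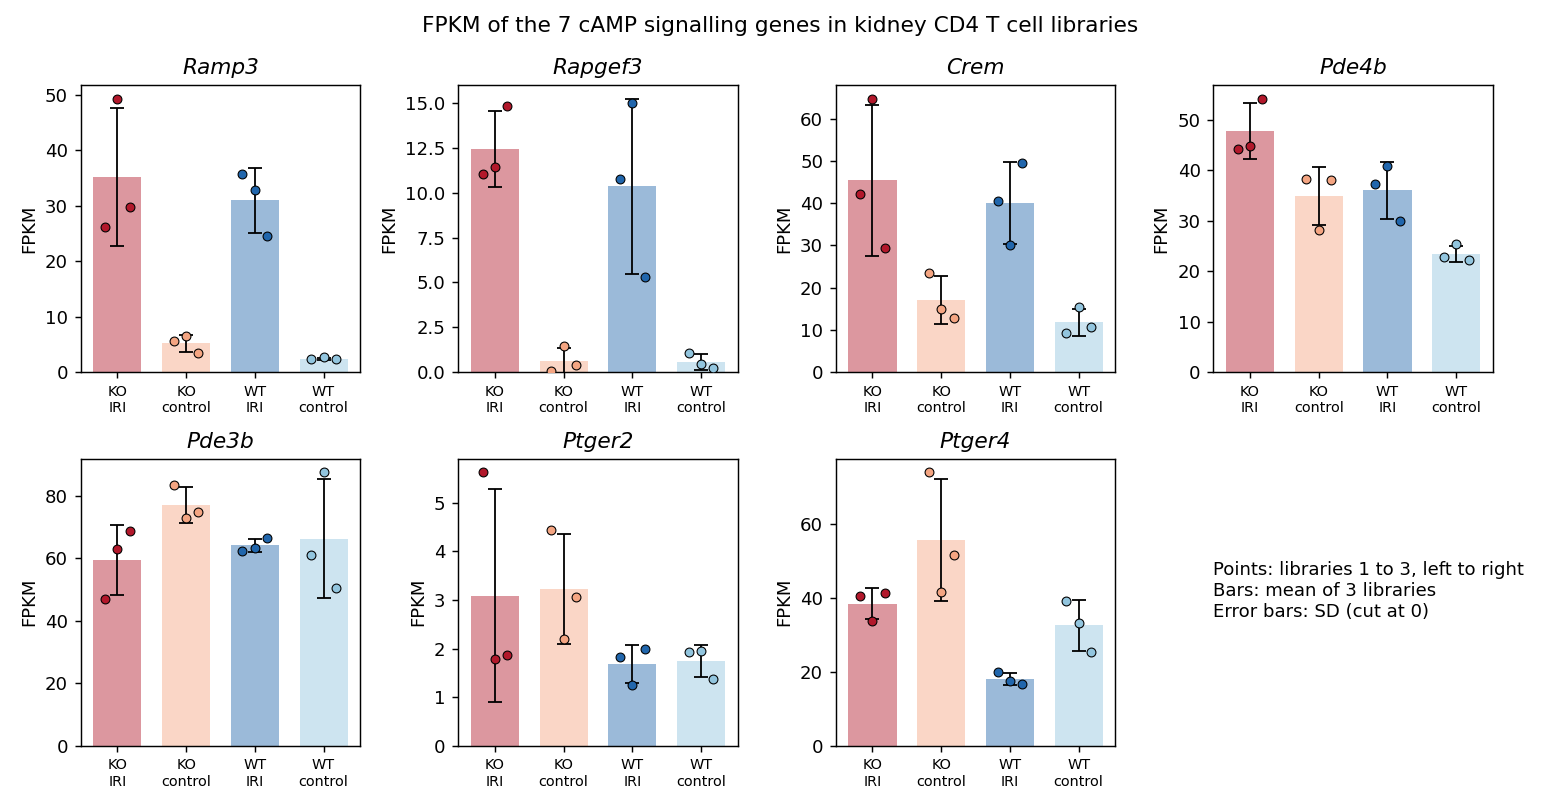
FPKM of the 7 genes (linear vertical axes that start at 0) in KO IRI, KO control, WT IRI and WT control. Points are libraries 1 to 3, bars are means of 3 libraries and error bars are SD, cut at 0. The IRI libraries of Ramp3, Rapgef3 and Crem all stand above the controls, and Ptger4 stands below its own controls in both genotypes.

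Ramp3, Rapgef3 and Crem were higher after IRI in both genotypes, with no overlap between any of the 6 IRI and the 6 control libraries. Ramp3 averaged 35.1 FPKM in KO IRI against 5.16 FPKM in KO control, a ratio of 6.80, and 31.0 FPKM in WT IRI against 2.41 FPKM in WT control, a ratio of 12.9. Rapgef3 was at most 1.46 FPKM in the controls and at least 5.30 FPKM in the IRI libraries. Pde4b was also higher, by less, Ptger4 was lower, and Pde3b and Ptger2 differed by less than their spread between libraries in WT. All 6 IRI libraries stood above all 6 controls for 3 of the 7 genes, against 1.46% of all genes. Within KO, IRI and control did not overlap for 4 genes that were higher and 2 that were lower, against 8.21% and 9.15% of all genes. Within WT they did not overlap for 4 that were higher and 1 that was lower, against 9.28% and 14.4% of all genes.

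Of the 7 genes, 2 were past the threshold (limma, adjusted p under 0.05 over all genes) in KO, both higher (Ramp3, Rapgef3), where 0.866% of all genes were past it and 0.327% were higher. In WT 3 were past it, all higher (Ramp3, Rapgef3, Crem), where 3.78% of all genes were past it and 1.19% were higher. Averaged over genotype, 4 were higher (the same 3 and Pde4b) and 1 was lower (Ptger4), where 9.04% of all genes were past it, 3.01% higher and 6.03% lower. These genes were chosen for these differences, so nothing is read from the counts, which also turned on single libraries. Crem left the WT count without WT IRI 1 (1.66), WT IRI 3 (1.52), WT control 1 (1.54) or WT control 3 (1.64), the log2 difference without each library standing in parentheses. Pde4b left the averaged count without KO IRI 2 (0.54), KO IRI 3 (0.47), WT IRI 1 (0.50), WT IRI 2 (0.47), WT control 1 (0.51) or WT control 3 (0.50). Ptger4 left it without KO IRI 2 (−0.60), KO IRI 3 (−0.67), KO control 1 (−0.54), KO control 3 (−0.66), WT IRI 1 (−0.68), WT IRI 2 (−0.64), WT IRI 3 (−0.62), WT control 1 (−0.58) or WT control 2 (−0.63).

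**Figure D2:**
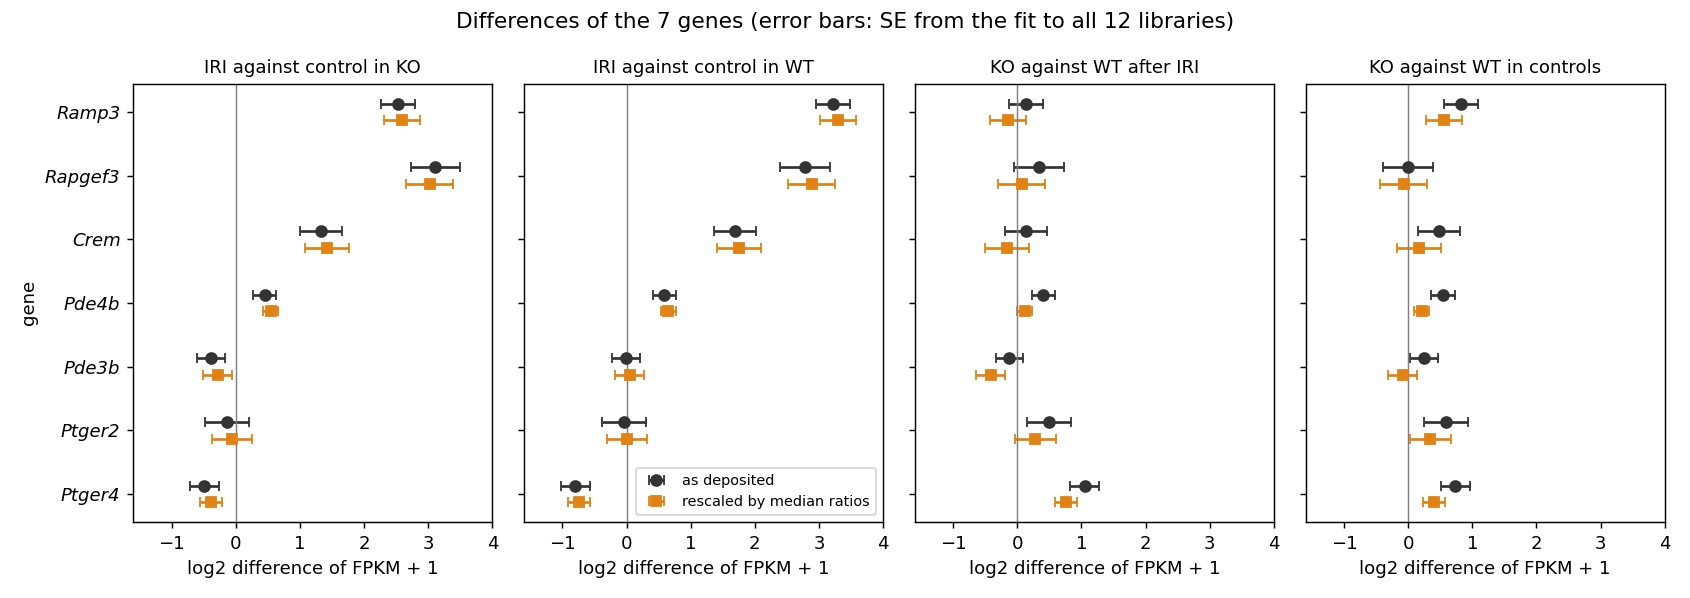
Log2 difference of FPKM + 1 (horizontal axes) for each of the 7 genes, in KO after IRI, in WT after IRI, and between KO and WT after IRI and in controls. Circles are values as deposited, squares are values after median-ratio rescaling, and error bars are SE from the fit to all 12 libraries; Ramp3 lies at 2.53 in KO and 3.22 in WT after IRI, and each genotype difference is lower after rescaling.

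Among receptors, Ramp3 (chr11:6658521-6677475, GRCm38, plus strand) was the gene with the widest difference in WT. It was 26.2, 49.3 and 29.8 FPKM in KO IRI and 5.57, 6.48 and 3.42 FPKM in KO control. In WT IRI it was 35.8, 32.7 and 24.5 FPKM, against 2.29, 2.64 and 2.29 FPKM in WT control. The IRI libraries of both genotypes overlapped each other, while KO control lay above WT control without overlap. The log2 difference after IRI was 2.53 ± 0.27 in KO and 3.22 ± 0.27 in WT (SE, n = 3 per group), and 2.59 and 3.30 after rescaling. The pseudogene Gm11978 lies on the opposite strand within Ramp3 and averaged 1.46 FPKM; whether the counting used strand is not stated.

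The other RAMP genes did not pass the threshold as deposited. Ramp1, the partner that makes the calcitonin gene-related peptide receptor, averaged 15.8 ± 3.23 FPKM in KO IRI against 32.1 ± 7.73 FPKM in KO control, and 8.53 ± 5.13 FPKM in WT IRI against 15.3 ± 3.96 FPKM in WT control (SD, n = 3). Averaged over genotype its difference was −0.96 ± 0.30 (limma, adjusted p = 0.0796; after rescaling −0.89, adjusted p = 0.0473). Ramp2 averaged 1.22 FPKM in KO IRI, 0.0776 FPKM in KO control, 1.84 FPKM in WT IRI and 1.36 FPKM in WT control. The share of Ramp3 in the summed FPKM of the 3 RAMP genes, a quantity that library scaling cannot move, was 59.9%, 71.0% and 69.0% in KO IRI and 12.0%, 19.9% and 10.4% in KO control. It was 75.2%, 70.8% and 80.8% in WT IRI and 11.3%, 11.5% and 16.6% in WT control. Ramp3 was thus the most abundant RAMP transcript in all 6 IRI libraries and Ramp1 in all 6 controls.

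Their partner receptor Calcrl averaged 12.0 ± 2.34 FPKM in KO IRI against 15.3 ± 4.74 FPKM in KO control, and 7.85 ± 2.31 FPKM in WT IRI against 13.1 ± 1.47 FPKM in WT control (SD, n = 3; averaged over genotype −0.50 ± 0.18, limma, adjusted p = 0.113). The calcitonin receptor gene Calcr was at most 0.636 FPKM in any library and was not tested. Calca, which encodes calcitonin and calcitonin gene-related peptide by alternative splicing, rose with IRI averaged over genotype. It was 17.5, 10.1 and 7.92 FPKM in KO IRI against 3.00, 2.16 and 0.0373 FPKM in KO control, and 12.1, 15.0 and 6.67 FPKM in WT IRI against 3.38, 2.36 and 1.18 FPKM in WT control. The averaged difference was 2.13 ± 0.36 (limma, adjusted p = 0.00516), past the threshold in 22 of 22 settings. A gene-level value does not separate the 2 products.

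**Figure D3:**
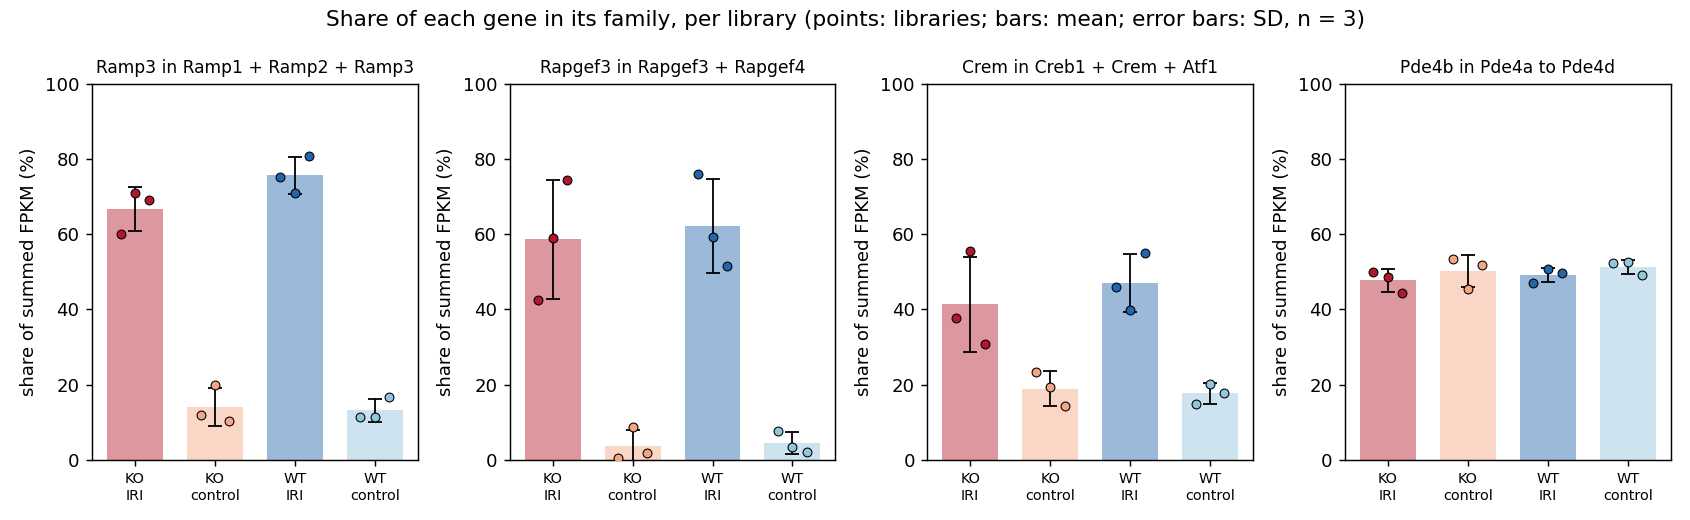
Share of Ramp3, Rapgef3, Crem and Pde4b in the summed FPKM of the family named above each panel (percent, vertical axes 0 to 100) by group. Points are libraries, bars are means of 3 libraries and error bars are SD (the lower bar of Rapgef3 in KO control is cut at 0); Ramp3 averages 66.6% in KO IRI and 75.6% in WT IRI, against 14.1% in KO control and 13.1% in WT control, while Pde4b stays between 47.7% and 51.3%.

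Ptger4 (chr15:5206661-5244187, minus strand), the EP4 receptor, ran the other way. It was 40.6, 33.7 and 41.3 FPKM in KO IRI and 74.1, 41.7 and 51.7 FPKM in KO control. In WT IRI it was 19.9, 17.5 and 16.8 FPKM, against 39.3, 33.2 and 25.5 FPKM in WT control. IRI and control libraries did not overlap within either genotype, though KO IRI 3 at 41.3 FPKM lay just under KO control 2 at 41.7 FPKM, and KO IRI overlapped WT control. The difference after IRI was −0.49 ± 0.23 in KO and −0.80 ± 0.23 in WT, or −0.39 and −0.74 after rescaling. Between genotypes, KO IRI lay above WT IRI without overlap as deposited and after rescaling (1.05 ± 0.23 and 0.76), and KO control above WT control as deposited only (0.74 ± 0.23 and 0.40). Ttc33 (10.4 FPKM on average) and Gm15937 (2.14 FPKM) overlap Ptger4 on the opposite strand. Over all processing settings the difference of Ptger4 ran from −0.91 to −0.27 in KO and from −0.96 to −0.66 in WT.

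Ptger2 (chr14:44988195-45003820, plus strand), the EP2 receptor, had the lowest mean of the 7 in both IRI groups. It was 5.62, 1.78 and 1.87 FPKM in KO IRI and 4.44, 2.19 and 3.06 FPKM in KO control. WT IRI held 1.82, 1.25 and 1.99 FPKM, against 1.93, 1.94 and 1.37 FPKM in WT control. IRI and control overlapped in both genotypes (−0.14 ± 0.34 in KO and −0.04 ± 0.34 in WT). The antisense gene Gm17173 overlaps it and averaged 2.12 FPKM over all libraries. Ptger4 made up 87.8% to 95.7% of the summed FPKM of the pair in all 12 libraries. The receptor Adora2a (−0.26 ± 0.14, adjusted p = 0.311) did not pass limma's threshold for IRI averaged over genotype. Ptgir, the prostacyclin receptor, did not pass it either (−0.46 ± 0.20, adjusted p = 0.191).

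Rapgef3 (chr15:97744770-97767972, minus strand), the EPAC1 exchange factor, was 11.1, 11.4 and 14.9 FPKM in KO IRI and 0.0812, 1.46 and 0.378 FPKM in KO control. In WT IRI it was 10.8, 15.0 and 5.30 FPKM, against 1.07, 0.451 and 0.216 FPKM in WT control. The lowest IRI library, WT IRI 3, still lay above the highest control, KO control 2, and the genotypes overlapped in both conditions. The ratio of means was 19.4 in KO and 17.9 in WT. The log2 difference was 3.11 ± 0.39 in KO and 2.78 ± 0.39 in WT, or 3.02 and 2.89 after rescaling. The antisense genes Rapgef3os1 and Rapgef3os2 averaged 0.572 and 0.449 FPKM.

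Its relative Rapgef4, which encodes EPAC2, was lower after IRI. It averaged 9.34 ± 5.04 FPKM in KO IRI against 18.2 ± 2.43 FPKM in KO control, and 6.28 ± 3.67 FPKM in WT IRI against 12.0 ± 1.67 FPKM in WT control (SD, n = 3). Averaged over genotype it fell by 0.97 ± 0.27 (limma, adjusted p = 0.0489), and it was past the threshold in 7 of 22 settings, with a range of −1.16 to −0.69. Rapgef3 made up 42.6%, 59.0% and 74.3% of the pair's summed FPKM in KO IRI and 0.418%, 8.64% and 1.87% in KO control. It made up 76.0%, 59.1% and 51.4% in WT IRI and 7.67%, 3.38% and 2.11% in WT control. The lowest IRI share, 42.6%, was therefore well above the highest control share, 8.64%.

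Pde4b (chr4:102087543-102607259, plus strand), a phosphodiesterase prominent in T cells, was 44.3, 44.9 and 54.3 FPKM in KO IRI and 38.3, 28.2 and 38.2 FPKM in KO control. WT IRI held 37.3, 40.9 and 29.9 FPKM, against 22.8, 25.3 and 22.3 FPKM in WT control. IRI and control did not overlap within a genotype, but KO control overlapped WT IRI. The difference was 0.45 ± 0.18 in KO and 0.59 ± 0.18 in WT, or 0.55 and 0.65 after rescaling. Its share in the 4 PDE4 genes averaged 47.7 ± 3.00% in KO IRI against 50.2 ± 4.17% in KO control, and 49.2 ± 1.87% in WT IRI against 51.3 ± 1.90% in WT control (SD, n = 3). Pde4d, the other abundant PDE4 gene, was higher too. It averaged 51.4 ± 12.5 FPKM in KO IRI against 32.2 ± 1.44 FPKM in KO control, and 35.1 ± 6.27 FPKM in WT IRI against 19.4 ± 2.00 FPKM in WT control. Averaged over genotype Pde4d rose by 0.72 ± 0.14 (limma, adjusted p = 0.0106; 21 of 22 settings). Over all processing settings the difference of Pde4b ran from 0.03 to 0.55 in KO and from 0.49 to 0.71 in WT.

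Pde3b (chr7:114415281-114539251, plus strand), a phosphodiesterase inhibited by cyclic GMP, was the most abundant of the 7 genes in every group mean. It was 47.0, 63.1 and 68.6 FPKM in KO IRI and 83.6, 73.0 and 74.8 FPKM in KO control. WT IRI held 62.5, 63.4 and 66.6 FPKM, against 61.1, 87.5 and 50.4 FPKM in WT control. KO IRI lay below KO control without overlap as deposited but not after rescaling (−0.38 ± 0.22 and −0.28), and WT IRI lay within the range of WT control (−0.01 ± 0.22). Its share in the summed FPKM of the listed phosphodiesterases averaged 22.04 ± 3.29% in KO IRI against 30.7 ± 1.65% in KO control, and 25.2 ± 4.22% in WT IRI against 29.2 ± 4.89% in WT control. The sum itself averaged 269 ± 18.2 FPKM in KO IRI against 252 ± 29.4 FPKM in KO control, and 259 ± 33.9 FPKM in WT IRI against 225 ± 28.7 FPKM in WT control.

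Pde7a, a cAMP-specific phosphodiesterase of T cells, averaged 54.5 FPKM in KO IRI, 65.7 FPKM in KO control, 57.7 FPKM in WT IRI and 77.9 FPKM in WT control, and did not pass the threshold averaged over genotype (−0.34 ± 0.17, limma, adjusted p = 0.247). Pde4a averaged 0.933 to 1.72 FPKM over the groups. Pde3a, the relative of Pde3b, was at most 1.01 FPKM in any library and was not tested. Pde1b, which calcium and calmodulin activate, rose by 1.20 ± 0.20 in WT (adjusted p = 0.0106; 20 of 22 settings) and by 1.01 ± 0.14 averaged over genotype (adjusted p = 0.00201; limma). Pde11a, a dual-specificity enzyme, fell by 0.92 ± 0.21 in WT (limma, adjusted p = 0.041), past the threshold in 8 of 22 settings. Averaged over genotype its fall was past the threshold in 21 of 22 settings, with a range of −0.99 to −0.48.

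Crem (chr18:3266048-3337748, minus strand) was 42.2, 64.8 and 29.3 FPKM in KO IRI and 23.5, 14.9 and 12.9 FPKM in KO control. In WT IRI it was 40.6, 30.2 and 49.6 FPKM, against 9.23, 15.4 and 10.7 FPKM in WT control. The lowest IRI library, KO IRI 3, stood above the highest control, KO control 1, and the genotypes overlapped in both conditions. The ratio of means was 2.65 in KO and 3.40 in WT, and the log2 difference 1.33 ± 0.33 in KO and 1.69 ± 0.33 in WT. Over all processing settings the difference of Crem ran from 0.91 to 1.60 in KO and from 1.42 to 1.88 in WT. It was past the threshold in 0 of 22 settings in KO and in 16 of 22 in WT. Gene-level FPKM does not separate the activator isoforms from ICER. Gm6225, on the opposite strand within Crem, averaged 7.25 FPKM.

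Creb1, the founding factor of the family, moved the other way. It averaged 25.0 ± 4.58 FPKM in KO IRI against 40.2 ± 6.56 FPKM in KO control, and 19.8 ± 1.62 FPKM in WT IRI against 31.0 ± 3.62 FPKM in WT control (SD, n = 3), and it fell by 0.64 ± 0.13 averaged over genotype (limma, adjusted p = 0.0132; 20 of 22 settings). Atf1 did not pass the threshold (0.14 ± 0.18, adjusted p = 0.691). Crem made up 37.7%, 55.4% and 30.9% of the summed FPKM of Creb1, Crem and Atf1 in KO IRI, against 23.3%, 19.3% and 14.2% in KO control. It made up 45.9%, 39.8% and 55.1% in WT IRI, against 14.8%, 20.2% and 17.9% in WT control. All 6 IRI shares were above all 6 control shares.

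The wider pathway was read from a list of 138 genes, 110 of them tested and 103 of these besides the 7. This list too was chosen with earlier results of these data known. The shares below are therefore a description and no test of the pathway as a whole. In KO, IRI moved 1 of the 103 past the threshold (Hpgd, lower), or 0.971%, against 0.866% of all genes. In WT it moved 5 higher and 6 lower, or 10.7%, against 3.78% of all genes. Averaged over genotype 12 were higher and 12 lower, or 23.3%, against 9.04% of all genes. The median difference of the 103 was −0.04 in KO and −0.03 in WT, beside −0.02 and 0.00 over all genes. Leaving out 1 library moved the counts in KO and in WT by more than 1.5 times. The count averaged over genotype (16 higher and 13 lower, the 7 genes included) ran from 20 to 31 with 1 library left out. With the 7 genes included, 14 were past the threshold in WT, but 7 without WT IRI 1, 3 without WT IRI 2, 6 without WT control 1, 7 without WT control 2 and 5 without WT control 3. In KO 3 were, but 6 without KO IRI 1, 9 without KO control 2 and 5 without WT IRI 3. After rescaling 13 were past it in KO and 28 in WT, where 2.06% and 7.94% of all genes were.

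Hpgd, the enzyme that inactivates prostaglandins, had the smallest adjusted p among the genes that fell. It was 1.24, 0.537 and 0.474 FPKM in KO IRI against 6.93, 7.66 and 5.80 FPKM in KO control, and 0.920, 0.653 and 1.69 FPKM in WT IRI against 6.78, 4.85 and 4.07 FPKM in WT control. The difference was −2.17 ± 0.26 in KO (adjusted p = 0.00683; 21 of 21 settings) and −1.58 ± 0.26 in WT (adjusted p = 0.0104; 19 of 21 settings) by limma. Ptgs2, the inducible cyclooxygenase that starts prostaglandin synthesis, rose by 1.01 ± 0.25 averaged over genotype (adjusted p = 0.0314; 12 of 21 settings), at low levels of at most 2.78 FPKM in any library.

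Of 12 other tested receptors and RAMPs coupled to the stimulatory G protein, 0 rose and 1 fell averaged over genotype as deposited, and 3 fell after rescaling. Among all genes, 3.01% rose and 6.03% fell in this comparison as deposited, and 6.35% and 7.33% after rescaling, and the counts of each role below stand beside these shares. The 1 gene that fell as deposited was Gpr174, a lysophosphatidylserine receptor, at 17.5 ± 4.11 FPKM in KO IRI against 30.3 ± 6.81 FPKM in KO control, and 8.33 ± 2.12 FPKM in WT IRI against 23.3 ± 4.11 FPKM in WT control (−1.08 ± 0.18, limma, adjusted p = 0.00441; 22 of 22 settings). Of 4 adenylyl cyclases, Adcy6 rose and Adcy7, the most abundant, fell. Adcy7 averaged 37.2 ± 13.1 FPKM in KO IRI against 85.0 ± 23.2 FPKM in KO control, and 22.5 ± 2.24 FPKM in WT IRI against 61.7 ± 5.85 FPKM in WT control (−1.30 ± 0.18, limma, adjusted p = 0.00194).

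Of 16 tested genes of protein kinase A subunits, inhibitors and anchors, 2 fell and 0 rose averaged over genotype as deposited, and 3 fell after rescaling. The 2 were the catalytic subunit Prkaca (−0.65 ± 0.15, limma, adjusted p = 0.0229; 12 of 22 settings) and Csk, a kinase that protein kinase A activates to restrain LCK (−0.93 ± 0.16, adjusted p = 0.00544). Prkacb (−0.48 ± 0.15, adjusted p = 0.0828) and the regulatory subunit Prkar1a (0.03 ± 0.15, adjusted p = 0.93) did not pass the threshold. Of 10 other EPAC and RAP1 genes, 2 rose and 2 fell. The RAP exchange factor Rapgef6 rose by 0.93 ± 0.17 (adjusted p = 0.00716), and of the RAP GTPase-activating proteins Sipa1l1 rose by 1.19 ± 0.17 (adjusted p = 0.00194) while Sipa1 fell by 1.00 ± 0.17 (adjusted p = 0.00476). Of 11 CREB target genes 2 rose and 0 fell as deposited, and 5 rose and 0 fell after rescaling. The 2 were Fosl2, by 1.142 ± 0.16 (adjusted p = 0.00195), and Per1. Sik1, a kinase that holds back CREB coactivators, rose by 0.76 ± 0.16 (adjusted p = 0.0167).

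**Figure D4:**
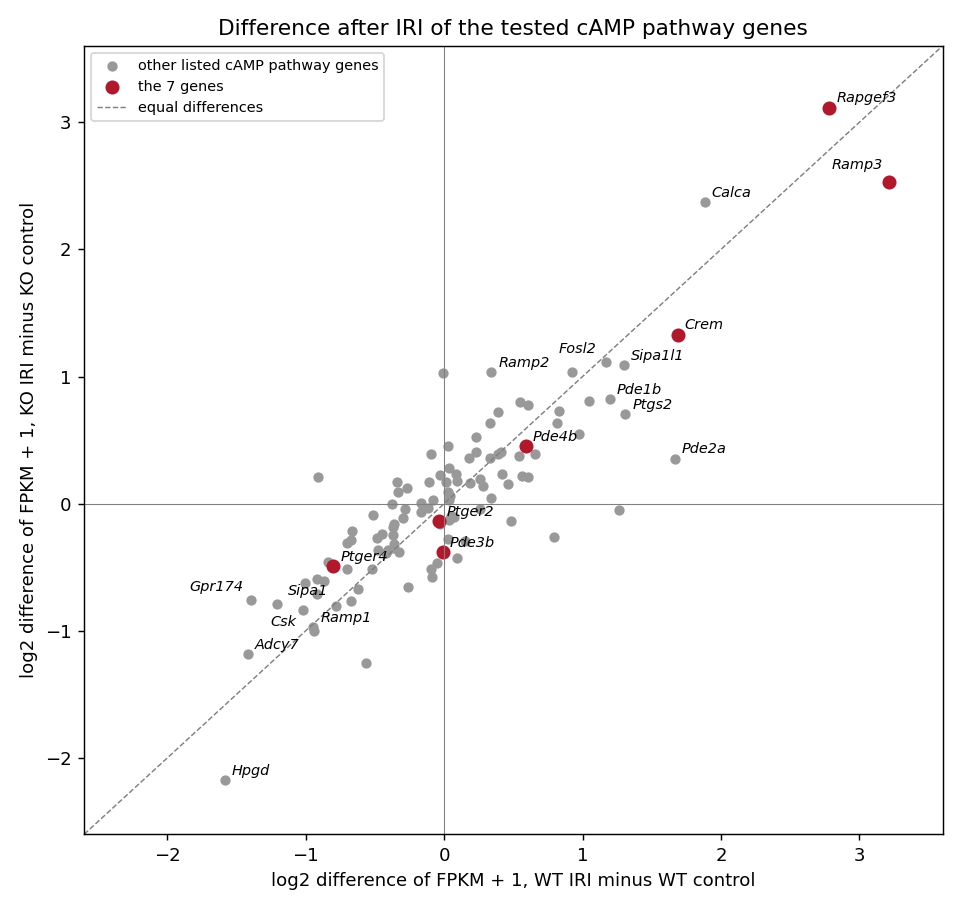
Log2 difference of FPKM + 1 after IRI in KO (vertical axis) against that in WT (horizontal axis) for the tested cAMP pathway genes. Red points are the 7 genes, grey points the other listed genes, and the dashed line marks equal differences; Rapgef3 and Ramp3 lie farthest towards the upper right and Hpgd farthest towards the lower left.

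Between genotypes, the KO levels of the 7 genes differed from the WT levels by at most 1.05 (log2). After IRI the KO minus WT difference was 1.05 ± 0.23 for Ptger4 and 0.40 ± 0.18 for Pde4b, and 0.76 and 0.11 after rescaling. For Ramp3 it was 0.14 ± 0.27 and for Crem 0.13 ± 0.33 as deposited, and both turned negative after rescaling (−0.15 and −0.16). In controls it was 0.82 ± 0.27 for Ramp3, 0.74 ± 0.23 for Ptger4, 0.60 ± 0.34 for Ptger2, 0.54 ± 0.18 for Pde4b and 0.00 ± 0.39 for Rapgef3. After rescaling these were 0.56, 0.40, 0.35, 0.21 and −0.07. Groups did not overlap for 4 of the 7 genes in controls and for 2 of 7 after IRI, higher in KO each time, against 20.1% and 24.9% of all genes.

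None of the 110 tested pathway genes was past limma's threshold between genotypes after IRI (39 at an unadjusted p under 0.05; 0.057% of all genes past it) or in controls (33 at an unadjusted p under 0.05; 0.0259% of all genes past it). Without KO control 2 the counts were 3 and 13. Averaged over condition 26 were past it as deposited, where 13.7% of all genes were, and 1 after rescaling, where 0.55% were. Of the 26, 25 were higher in KO and 1 (Pkib) was lower, where 11.9% and 1.76% of all genes were. The counts without 1 library ran from 0 (without KO control 3 or WT control 1) to 44 (without KO control 2). It was 2 without KO IRI 1, KO control 1 or WT control 2, 6 without KO IRI 3, WT IRI 3 or WT control 3, 13 without KO IRI 2 and 17 without WT IRI 2. The gene that passed after rescaling was Gpr183, an oxysterol receptor coupled to the inhibitory G protein, at 69.8 ± 13.7 FPKM in KO IRI against 36.3 ± 7.05 FPKM in WT IRI, and 77.5 ± 9.28 FPKM in KO control against 36.7 ± 3.62 FPKM in WT control (0.99 ± 0.14 as deposited, adjusted p = 0.0165; 0.68 after rescaling, adjusted p = 0.0297).

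The response to IRI was also compared between genotypes. The interaction (the IRI difference in KO minus that in WT) was −0.68 ± 0.38 for Ramp3, 0.33 ± 0.55 for Rapgef3, −0.36 ± 0.46 for Crem, −0.14 ± 0.26 for Pde4b, −0.37 ± 0.31 for Pde3b, −0.10 ± 0.48 for Ptger2 and 0.31 ± 0.32 for Ptger4. None of the 110 tested pathway genes was past limma's threshold (1 at an unadjusted p under 0.05), where 0.00518% of all genes were. A difference of response was thus not detected for these genes, which does not show that the genotypes responded alike.

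Over the 12 libraries, the gene most like Ramp3 among 12053 protein-coding genes was Rapgef3, and the reverse also held. Likeness was the root mean square difference of log2(FPKM + 1), each gene centred on its own mean, and was 0.511 between the pair, beside 1.49 for Ramp3 and 1.54 for Rapgef3 around their own means. Genes were not scaled to equal spread, so genes with similarly wide differences after IRI lie close by construction. Both genes were also chosen with earlier results known, so the match is a description only. Next to Ramp3 stood Nfil3 (0.557) and Prr7 (0.561), and next to Rapgef3 stood Clec4d (0.541) and Acer2 (0.580). Clec4d, a C-type lectin of myeloid cells, averaged 3.77 ± 0.789 FPKM in KO IRI against 0.117 ± 0.203 FPKM in KO control, and 5.76 ± 2.51 FPKM in WT IRI against 0.0928 ± 0.0573 FPKM in WT control. Crem was closest to Nmrk1 (0.232), Pdcd1 (0.320) and Arhgef10 (0.321), with 0.851 around its own mean. Pdcd1, which encodes the inhibitory receptor PD-1, averaged 33.5 ± 6.63 FPKM in KO IRI against 14.4 ± 4.84 FPKM in KO control, and 23.5 ± 4.30 FPKM in WT IRI against 9.497 ± 2.09 FPKM in WT control. Pde4b was closest to Mios (0.0621), Zc3hav1 (0.0642) and Rrp1 (0.0751), with 0.386 around its own mean.

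Markers of other cells moved with IRI as well, and in bulk samples fewer cells of a type and less RNA per cell cannot be told apart. All 8 T cell markers averaged at least 1 FPKM, and Cd4 was 49.7 to 382 FPKM over the libraries. The summed T cell markers ran from 1189 to 1512 FPKM in KO IRI and from 1579 to 2329 FPKM in KO control, and from 562 to 713 FPKM in WT IRI and from 1224 to 1333 FPKM in WT control. Of the 8, 1 fell in KO, 4 in WT and 5 averaged over genotype (limma), where 0.539%, 2.59% and 6.03% of all genes fell. Between genotypes averaged over condition all 8 were higher in KO as deposited and 3 after rescaling, where 11.9% and 0.378% of all genes were. These marker differences stand beside the genotype differences of Ptger4 and Pde4b. The T cell marker sum averaged 1366 FPKM in KO IRI against 2029 FPKM in KO control. In WT it averaged 636 FPKM after IRI against 1289 FPKM in control. These lower sums after IRI stand beside the lower levels of Ptger4, Ramp1, Rapgef4 and Creb1, and a link was not tested. The 6 neutrophil markers summed to 4.38 to 33.9 FPKM in KO IRI and 2.55 to 4.87 FPKM in KO control, and to 18.3 to 38.5 FPKM in WT IRI and 4.29 to 7.66 FPKM in WT control. Of these, 0 rose in KO and 1 in WT, and 3 rose averaged over genotype, where 0.327%, 1.19% and 3.01% of all genes rose. S100a8 was listed at 0 in 3 libraries and Ly6g in 1.

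The endothelial markers, from a cell type in which RAMP and CALCRL proteins are well known, summed to 36.5 to 42.6 FPKM in KO IRI against 33.6 to 51.8 FPKM in KO control, and to 25.3 to 32.1 FPKM in WT IRI against 26.7 to 38.8 FPKM in WT control. Pecam1, also present on leukocytes, held most of this sum, while Cdh5 was at most 1.20 FPKM and Tek at most 0.261 FPKM in any library. The pathway gene Ramp2 is itself 1 of the 6 endothelial markers summed. The 7 macrophage and monocyte markers summed to 56.7 to 137 FPKM in KO IRI against 129.6 to 291 FPKM in KO control, and to 83.0 to 86.9 FPKM in WT IRI against 66.0 to 143 FPKM in WT control. The 5 B cell markers summed to 3.95 to 7.77 FPKM in KO IRI against 20.5 to 80.7 FPKM in KO control, and to 4.18 to 13.5 FPKM in WT IRI against 8.71 to 45.9 FPKM in WT control. Those of CD8 T and NK cells, 6 in number, summed to 8.47 to 18.05 FPKM in KO IRI against 29.0 to 55.3 FPKM in KO control, and to 12.7 to 29.7 FPKM in WT IRI against 20.6 to 39.5 FPKM in WT control. Averaged over genotype, 3 of 5 B cell, 4 of 6 CD8 T and NK cell, 2 of 7 macrophage and monocyte and 1 of 5 dendritic cell markers fell (limma). Over all genes 6.03% fell in this comparison. Loop and distal tubule markers varied widely, with sums of 3.66 to 261 FPKM in KO IRI against 0.455 to 33.4 FPKM in KO control, and 7.46 to 55.0 FPKM in WT IRI against 6.57 to 74.8 FPKM in WT control. The part of these cells in the differences of the 7 genes was not tested.

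**Figure D5:**
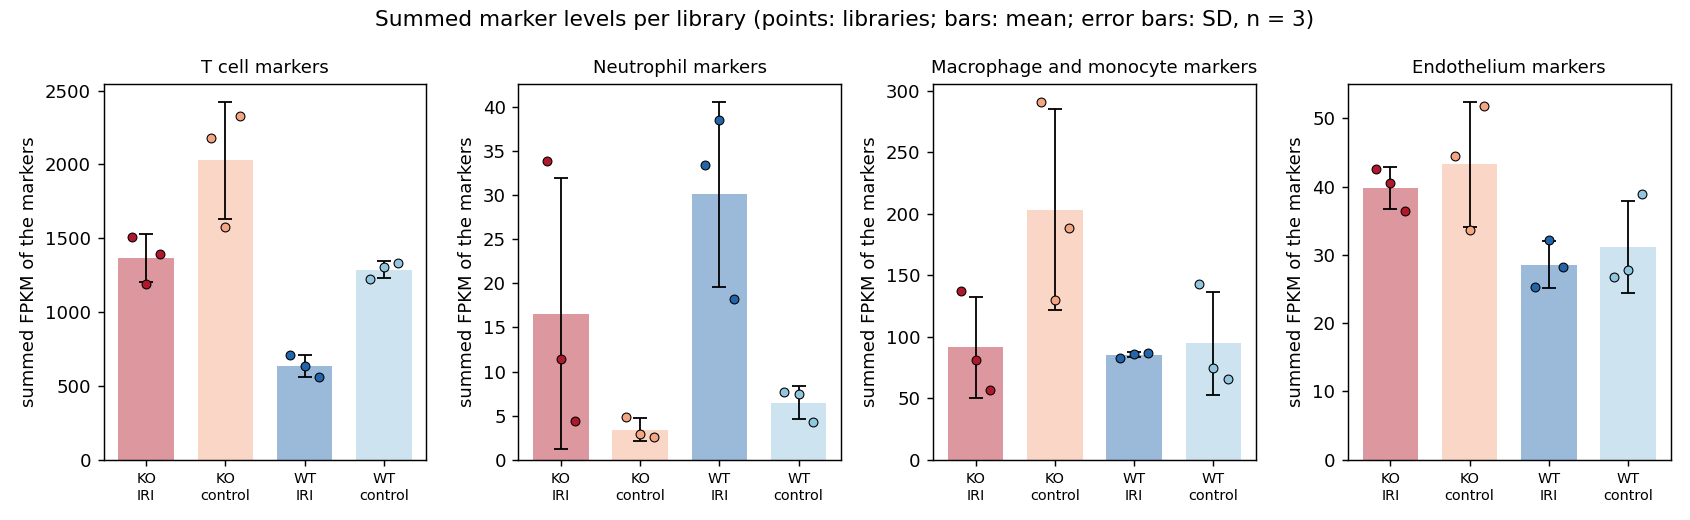
Summed FPKM of T cell, neutrophil, macrophage and monocyte, and endothelial markers (vertical axes start at 0, with a different range in each panel) in KO IRI, KO control, WT IRI and WT control. Points are libraries, bars are means of 3 libraries and error bars are SD; the neutrophil sum reaches 33.9 FPKM in KO IRI and 38.5 FPKM in WT IRI, against at most 4.87 FPKM in KO control and 7.66 FPKM in WT control.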

How the data were processed

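Total RNA (1 ng per library) was sequenced as paired reads of 36 bases, per the labels' protocols. The authors deposited 1 table of FPKM values for 52632 genes in 12 libraries. Tools listed in the submitters' processing notes, without a role, are TopHat2 2.1.0, Cufflinks 2.2.1, bcl2fastq 2.17.1.14 and Partek 7.0, with the build GRCm38. The strand setting, annotation release and any scaling between libraries are not given in the sources used here. FPKM holds no counts, so depth and counting error are unknown, and an exact 0 can be a failed estimate.

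Gene IDs were matched without their version to symbols and to GENCODE mouse release 21, which gave GRCm38 coordinates; 52399 IDs were paired with a symbol. Genes averaging 1 FPKM or more (19288) were tested with limma 3.58.1 in R 4.3.3 (eBayes with trend) on log2(FPKM + 1), a pseudocount of 1 FPKM that understates the change of low genes. The fit held all 12 libraries, 4 group means and 8 residual degrees of freedom. P-values were adjusted by Benjamini-Hochberg within each of 7 comparisons, with a threshold of 0.05. The fit was also run on simulated data with known shifts in WT IRI alone. Those data held no differences of scale between libraries, so that run does not bear on library scaling. Rescaled values were divided by median ratios over 16018 genes above 0 in all libraries.

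The 7 genes, the pathway list and the marker lists were chosen with earlier results of these data known. Genes named besides the 7 are close relatives whatever their values, up to 5 higher and 5 lower past the threshold per comparison by smallest adjusted p, and the 3 genes most like each of Ramp3, Rapgef3, Crem and Pde4b. For KO against WT averaged over condition, only Gpr183, which also passed after rescaling, and Pkib are named besides the 7. Other genes of the list are named only where a role's count is given. One of the close relatives is not reported here. Alternatives were other pseudocounts, filters and scalings, a replicate block, each library left out, and KO control 1, WT IRI 3 and WT control 3 left out together. Replicate numbers were not taken as pairs in the main fit.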

Additional observations from a re-analysis of the deposited data

How the results depend on the processing

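The counts below are pathway genes (of 110) past the limma threshold, the 7 genes included. For IRI in KO the count was 3 as deposited, 6 with a mean of at least 5 FPKM, 13 after median-ratio rescaling and 12 after quantile normalization, and 3 to 9 with 1 library left out. For IRI in WT it was 14 as deposited, 28 after median-ratio rescaling, 26 after quantile normalization, 2 with a common FPKM sum and 5 without KO control 1, WT IRI 3 and WT control 3 together, and 3 to 17 with 1 library left out. Averaged over genotype it was 29, and 16 with a common FPKM sum, and 20 to 31 with 1 library left out. Between genotypes it was 0 after IRI and 0 in controls, and 0 to 3 and 0 to 13 with 1 library left out. Averaged over condition it was 26, but 4 with no filter, 1 after median-ratio rescaling, 0 after quantile normalization, 0 with a common FPKM sum and 0 without the 3 libraries together, and 0 to 44 with 1 library left out. The interaction count was 0 in all settings. The cause of these changes was not tested.

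With the replicate number as a block the count for IRI in KO was 5. Deviations of same-numbered libraries correlated at −0.04 to 0.20 (18 pairs), and of differently numbered ones at −0.15 to 0.12 (36 pairs). Of 12 libraries, 7 correlated best with their own number. These values cannot exclude pairing, and the main fit did not take the numbers as pairs.

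Of 1022 values of the 7 genes under the alternatives, 61 moved by more than 1 SD between libraries. Unknown depth limits low values most, such as Rapgef3 in controls and Ptger2.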
